A study of Homo sapiens with 6 samples.

Results

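The death-associated protein kinases are 5 serine/threonine kinase genes, DAPK1, DAPK2, DAPK3, STK17A and STK17B. They were taken by symbol from the 60240 genes of an RNA-seq count table, and all 5 were present. The family was selected on its counts in these same libraries, above all the low counts of DAPK1 in the knockout, so its changes between the genotypes are given as a description. The libraries came from HCT116, a human colorectal cancer cell line grown in McCoy's medium with fetal bovine serum, with 3 libraries from wild-type cells (WT) and 3 from LSD1 knockout cells (LSD1 KO). LSD1, encoded by KDM1A, removes methyl groups from lysine 4 of histone H3. It was disrupted with CRISPR/Cas9 in its first exon, and individual clones were expanded, but the number of clones behind the 3 LSD1 KO libraries was not given. The study's methods describe biological replicates for its experiments in general. The labels do not say whether these libraries came from separate cultures, so p-values measure only the spread between these libraries.

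The family shares a related kinase domain and is known for roles in programmed cell death, membrane blebbing and autophagy. DAPK1 and DAPK2 are held inactive by an autoinhibitory segment that calcium-bound calmodulin relieves, whereas DAPK3, also called ZIPK, lacks this segment and forms dimers through a leucine zipper. STK17A and STK17B, also called DRAK1 and DRAK2, are more distant relatives, and DAPK1 is known as a gene whose CpG-rich promoter is often methylated in tumours.

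Total counts ranged from 25379279 to 29186963 per library. Levels are given as CPM (counts scaled to library size, here with TMM factors), and 3 counts, taken as the floor, corresponded to 0.103 to 0.118 CPM, which covers counting error only. KDM1A itself had 6119, 5927 and 6451 counts in WT and 837, 749 and 734 in LSD1 KO (log2 fold change −2.97, SE 0.15, q = 0.000451 by edgeR's quasi-likelihood test with Benjamini-Hochberg adjustment over 17672 genes). Of 7 colon epithelial markers, 6 were plainly present, and LGALS4 had only 3 to 10 counts. The epithelial markers summed to between 2044 and 3820 CPM in WT and between 2421 and 3160 CPM in LSD1 KO. Of the 7 immune, fibroblast and endothelial markers in the table, 4 were at or under the floor in each library and CD3E was at 0, while COL1A1 had 540 to 902 counts. These 7 markers summed to between 20.4 and 24.1 CPM in WT and between 30.2 and 34.3 CPM in LSD1 KO. With the replicate block, EPCAM was lower in LSD1 KO (log2 fold change −0.98, q = 0.0788 by edgeR) and COL1A1 was higher (0.52, q = 0.0628). DESeq2 called EPCAM without the block (q = 0.0508) but not with it (q = 0.162), and called COL1A1 with it (q = 0.0247). The epithelial marker KRT19 went the other way from EPCAM, with a log2 fold change of 0.45 with the block. KRT19 was called by DESeq2 with the block (q = 0.00373) but not by edgeR with it (q = 0.123). KRT8, KRT18, CDH1 and CDX2 were not called in any of these fits. Whether cell composition contributed to any value below was not tested, and in bulk RNA fewer cells expressing a gene and less RNA per cell cannot be told apart. Libraries with the same replicate number deviated together from their group means, so values from a fit with the replicate number as a block are given beside those without it where they change a call.

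The promoters of the genes with the lowest and the highest level in the family are shown, because DAPK1 is known for its CpG-rich promoter and DAPK3 gives the comparison within the family. Each is the window of 250 bases upstream of a RefSeq transcription start on GRCh38.p14, read 5′ to 3′ on the gene's strand, with each CG dinucleotide in capitals. The DAPK1 window lies on the plus strand at chr9:87497617-87497866, inside the annotated span of the gene because another transcript starts further upstream. The DAPK3 window lies on the minus strand at chr19:3971100-3971349.
DAPK1: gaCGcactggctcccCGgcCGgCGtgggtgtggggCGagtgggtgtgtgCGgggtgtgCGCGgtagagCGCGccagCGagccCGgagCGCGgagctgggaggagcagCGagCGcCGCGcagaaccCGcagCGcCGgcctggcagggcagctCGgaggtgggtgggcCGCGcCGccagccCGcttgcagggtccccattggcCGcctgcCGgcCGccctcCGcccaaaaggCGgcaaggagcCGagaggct
DAPK3: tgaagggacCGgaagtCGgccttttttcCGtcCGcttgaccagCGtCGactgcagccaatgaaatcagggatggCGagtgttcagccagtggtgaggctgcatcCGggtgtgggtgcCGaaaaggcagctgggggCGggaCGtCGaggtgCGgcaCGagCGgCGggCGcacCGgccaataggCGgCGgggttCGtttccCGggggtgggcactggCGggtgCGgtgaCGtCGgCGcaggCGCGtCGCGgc
The DAPK1 window held 32 CG dinucleotides, and 9.52% of the 35116 promoter windows of this length held at least as many. The other members did not stand far from it, with 27 in DAPK2, 31 in DAPK3, 32 in STK17A and 35 in STK17B, against a median of 11 over all windows. A second DAPK1 start had 26. The STK17B window, on the minus strand at chr2:196171579-196171828, also lies inside the annotated span of its gene. The GC content of the windows was 77.2% in DAPK1, 76.4% in DAPK2, 68.8% in DAPK3, 79.2% in STK17A and 78.0% in STK17B. The GC box GGGCGG, searched on both strands and itself holding a CG, was present in 42.6% of all windows and occurred 2 times in DAPK1, 1 time in DAPK2, 1 time in DAPK3, 7 times in STK17A and 3 times in STK17B. The motif CCAAT, present in 32% of windows on either strand, occurred 1 time in DAPK1, 2 times in DAPK3 and 1 time in STK17B. The E-box CAGGTG, present in 17.5% of windows, and the palindrome CACGTG, present in 6.34%, each occurred 1 time in STK17B and in none of the other windows. These matches describe the letters of the windows. DNA methylation and histone marks of these promoters were not analysed here.

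**Figure D1:**
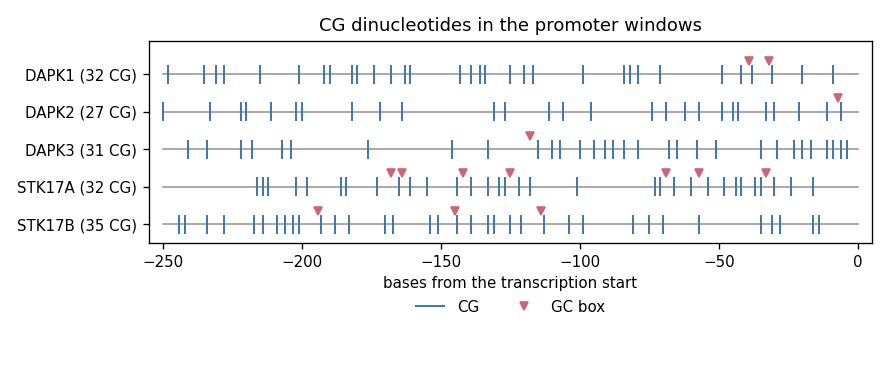
Each line is the 250-base window upstream of a RefSeq transcription start of one kinase gene, by distance from that start in bases. Blue ticks mark CG dinucleotides and red triangles mark the GC box on either strand. The DAPK1 and STK17B windows lie inside the annotated spans of their genes. All 5 windows carry ticks along most of their length, from 27 in DAPK2 to 35 in STK17B.

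DAPK1 (ENSG00000196730, chr9:87497228-87708634, plus strand of GRCh38.p14) has 26 exons in its canonical transcript, and it encodes the founding member of the family, a large kinase with ankyrin repeats and a death domain. It had 40, 44 and 60 counts in WT replicates 1 to 3 and 2, 4 and 6 counts in LSD1 KO replicates 1 to 3. Each LSD1 KO library was far under each WT library, and the groups did not overlap. On the CPM scale, the level was 1.51, 1.67 and 1.99 in WT (1.72 ± 0.243, mean ± SD, n = 3) and 0.0715, 0.147 and 0.227 in LSD1 KO (0.149 ± 0.0778, n = 3). The LSD1 KO mean was 8.64% of the WT mean, and LSD1 KO replicate 1, with 2 counts, was under the floor. The summed counts were 144 in WT and 12 in LSD1 KO, a fold of 11.8 after scaling, with an exact 95% interval of 6.54 to 23.3 that covers counting error only.

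The fitted log2 fold change of DAPK1 was −3.50 (SE 0.50, 95% interval −4.64 to −2.36) without the replicate block and −3.53 (SE 0.46, −4.58 to −2.49) with it. In the same-numbered pairs, the log2 difference was −4.40, −3.50 and −3.13. This was the lowest log2 fold change of the 17672 genes tested in both fits, followed by MAL2 at −3.23 and KDM1A at −2.97 in the fit without the block. DAPK1 passed the filter on low counts only through the WT libraries, since it reached 10 counts in 3 WT and 0 LSD1 KO libraries, and a gene that passes in this way has to differ. Leaving out each library in turn moved the log2 fold change between −3.93 and −3.17.

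DAPK2 (ENSG00000035664, chr15:63907036-64046485, minus strand) encodes a smaller calmodulin-regulated kinase without the death domain. It had 119, 134 and 128 counts in WT and 111, 111 and 134 in LSD1 KO. The groups overlapped, at 4.60 ± 0.426 CPM in WT and 4.38 ± 0.606 CPM in LSD1 KO (n = 3 each). Its log2 fold change was −0.072 (SE 0.25), with a 95% interval of −0.65 to 0.51 that leaves room for changes of either sign.

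DAPK3 (ENSG00000167657, chr19:3958453-3971099, minus strand) encodes ZIPK, a kinase of the myosin regulatory light chain. Its counts were 1173, 1941 and 1634 in WT and 1306, 1886 and 1275 in LSD1 KO. Replicate 2 was the highest library in both groups, at 73.5 CPM in WT and 69.5 CPM in LSD1 KO, while the other libraries lay between 44.3 and 54.1 CPM. The means were 57.3 ± 14.8 CPM in WT and 54.8 ± 12.7 CPM in LSD1 KO, and the groups overlapped. The log2 fold change was −0.064 (SE 0.24, 95% interval −0.61 to 0.48), and the interval narrowed to −0.27 to 0.16 with the replicate block. Its sign was not stable, with 0.15 without WT replicate 2 and −0.29 without LSD1 KO replicate 2.

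STK17A (ENSG00000164543, chr7:43583108-43627379, plus strand) encodes DRAK1, a kinase linked to apoptosis. It had 1119, 1153 and 1090 counts in WT and 1130, 1513 and 1034 in LSD1 KO. LSD1 KO replicate 2 was the highest library, at 55.7 CPM, and the other LSD1 KO libraries lay within the WT range. The means were 40.7 ± 4.01 CPM in WT and 45.1 ± 9.24 CPM in LSD1 KO, with a log2 fold change of 0.15 (SE 0.19, 95% interval −0.28 to 0.58). It was −0.049 without LSD1 KO replicate 2, and 0.0077 with the block and pair 2 left out.

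STK17B (ENSG00000081320, chr2:196133583-196176483, minus strand) encodes DRAK2, known as a negative regulator of T cell receptor signalling. Its counts were 765, 655 and 930 in WT and 854, 1154 and 869 in LSD1 KO. The LSD1 KO mean of 35.3 ± 6.34 CPM was above the WT mean of 28.2 ± 3.08 CPM, but LSD1 KO replicate 1, at 30.5 CPM, was under WT replicate 3, at 30.8 CPM. The log2 fold change was 0.33 (SE 0.19, 95% interval −0.097 to 0.75). It rested on the replicate 2 libraries, since the same-numbered pairs differed by 0.080, 0.78 and 0.094 on the log2 scale, and the value with the replicate block was 0.069 once pair 2 was left out.

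**Figure D2:**
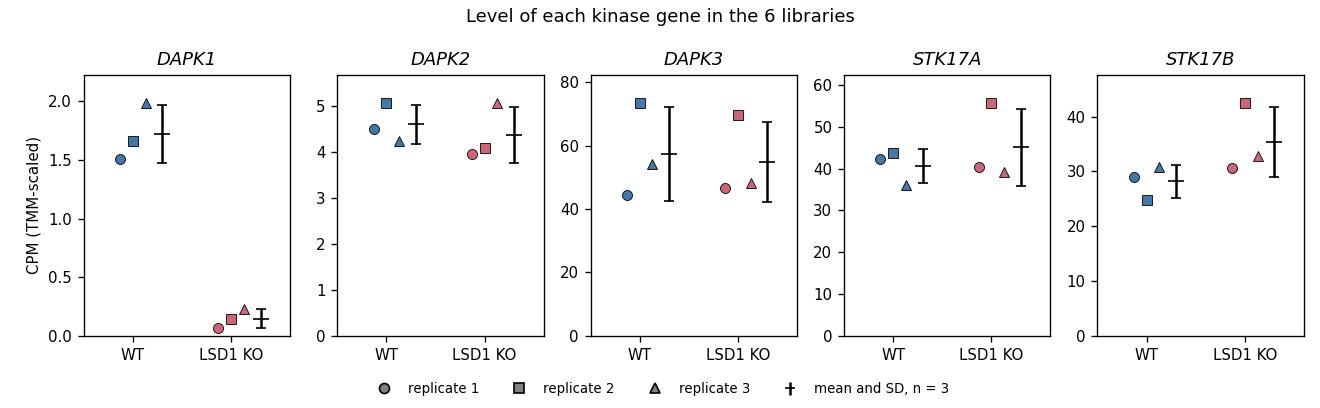
The level of each kinase gene in CPM is plotted from 0 on a separate axis for each gene, with 1 point per library (circle, square and triangle for replicates 1, 2 and 3) and the mean with its SD beside each group. DAPK1 is between 1.51 and 1.99 CPM in WT and between 0.0715 and 0.227 CPM in LSD1 KO, whereas the groups of the other genes overlap.

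No call was made for the family (0 of 5) at a q value under 0.1 in the edgeR fit without the block, where 1 of 17672 genes (0.00566%) passed, and 1 gene, DAPK1, had an unadjusted p under 0.05, as did 3.12% of all genes. With the replicate block, 1 of 5 passed, against 1.6% of all genes (0.549% lower and 1.05% higher in LSD1 KO). With DESeq2, 1 of 5 passed, against 0.376% of all genes with an adjusted p, and with DESeq2 and the block 0 of 4 passed, against 4.21%, because DAPK1 was given no adjusted p after the low-count filter of that tool. The gene that passed was DAPK1 in each case. The libraries of 1 of the 5 genes did not overlap between the groups, DAPK1 again, while 3.51% of all genes were lower and 4.23% were higher in each LSD1 KO library than in each WT library. In the same-numbered pairs, 17.5% of all genes were lower and 18.8% were higher in LSD1 KO in all 3. These shares stand beside counts that the choice of the family used, and nothing is read from them.

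**Figure D3:**
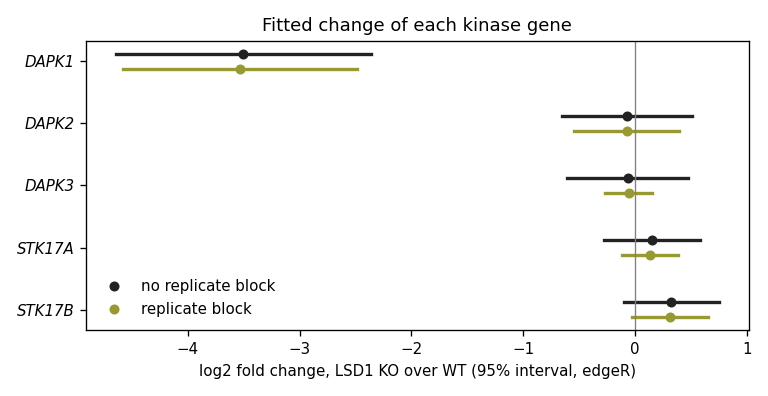
Points are the log2 fold change of LSD1 KO over WT for each kinase gene, and bars are the 95% intervals from edgeR, in black without and in olive with the replicate block. The DAPK1 intervals lie between −4.64 and −2.36, and the intervals of the other 4 genes include 0 in both fits.

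**Figure D4:**
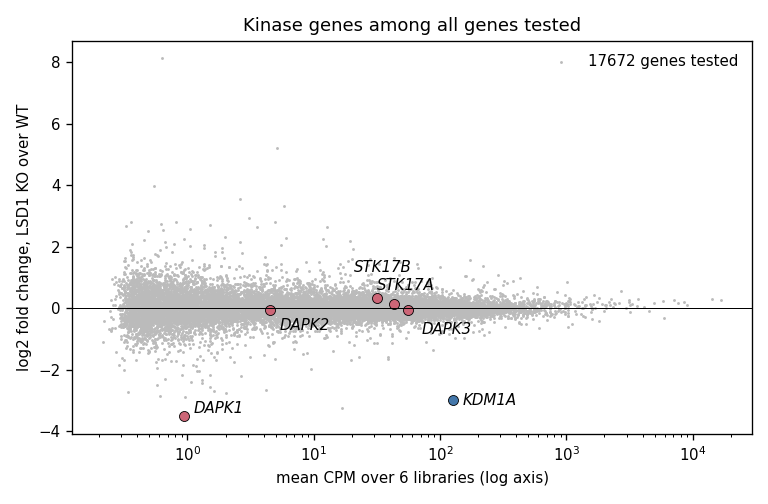
The log2 fold change of LSD1 KO over WT is plotted against the mean CPM over 6 libraries on a log axis for the 17672 genes tested, with the kinase genes in red and KDM1A in blue. DAPK1 is the lowest point, and the other 4 kinase genes lie within the cloud near 0.

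The replicate number was a comparison that the choice of the family did not use. Differences between replicate numbers, with the group in the model, had a q value under 0.1 for 1 of the 5 genes and for 41.2% of all genes by edgeR's quasi-likelihood test. That gene was DAPK3 (q = 0.0103), whose same-numbered pairs averaged 45.5, 71.5 and 51.2 CPM, a range of 1.57-fold. STK17A had pair means of 41.3, 49.7 and 37.6 CPM (q = 0.104), and STK17B had 29.7, 33.7 and 31.9 CPM (q = 0.788). DAPK1 (q = 0.566) had pair means of 0.791, 0.906 and 1.11 CPM, and DAPK2 (q = 0.882) had 4.23, 4.58 and 4.66 CPM. Neither was called, and whether their low counts hid a difference was not tested.

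Divided by the length of the canonical transcript, the order of levels in WT was DAPK3 at 25.1 ± 6.49, STK17A at 10.4 ± 1.02, STK17B at 5.34 ± 0.583, DAPK2 at 1.65 ± 0.153 and DAPK1 at 0.291 ± 0.0412 CPM per kilobase (n = 3). No neighbours in this order overlapped in WT or in LSD1 KO, and the order was the same in both. DAPK1 made up 0.691% of the summed family level per kilobase in WT and 0.0586% in LSD1 KO. Divided by the coding length instead, DAPK3 and STK17A overlapped in both groups, STK17A and STK17B overlapped in LSD1 KO, and DAPK1 remained the lowest. So DAPK1 was already the least abundant member in WT, and DAPK3 and STK17A were the most abundant by transcript length.

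Most of the family's sequence was its own. Of the distinct 31-base words in DAPK1 transcripts, 0.0889% also occurred in another gene, and the share was 5.08% in DAPK2, 1.98% in DAPK3, 0.281% in STK17A and 2.67% in STK17B. Members shared at most 1 such word with each other. Exons overlapped another gene on the opposite strand by 105 bases in DAPK2 (ENSG00000259351) and by 155 bases in STK17A (COA1), and MIR637 overlapped DAPK3 on the same strand by 99 bases. Whether the counting used strand is not given in the sources used here, so these reads may not be told apart. DAPK1 and STK17B had no such overlap. DAPK1-IT1, a separate transcript within DAPK1, had 0 counts in 5 libraries and 1 count in LSD1 KO replicate 3.

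The nearest tested genes on either side of each member were not called in either fit. CTSL, which encodes a lysosomal protease and lies 17.5 kb after DAPK1, had 35.4 CPM in WT and 42.8 CPM in LSD1 KO (log2 fold change 0.27, SE 0.42). LINC02893, 455 kb before DAPK1, had 0.899 and 1.18 CPM (log2 fold change 0.39, SE 0.48). Their standard errors were as large as or larger than their log2 fold changes, so neither sign is resolved. Next to the other members, the log2 fold change was 0.064 for HERC1 and 0.037 for CIAO2A beside DAPK2, −0.037 for ATCAY and 0.29 for EEF2 beside DAPK3, 0.60 for HECW1, 0.016 for BLVRA and −0.037 for the overlapping COA1 beside STK17A, and 0.22 for E2F3P2 and −0.15 for HECW2 beside STK17B.

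The genes around the kinases were described with 7 lists of 100 genes in all, of which 92 were tested. Without the replicate block 0 of the 92 had a q value under 0.1 by edgeR, 2 had an unadjusted p under 0.05 (2.17%, against 3.12% of all genes), and DESeq2 called 0. With the block, edgeR called 4 (4.35%, against 1.6% of all genes), of which 3 were higher and 1 was lower in LSD1 KO, and DESeq2 with the block called 6, against 4.21% of all genes. The median log2 fold change of the 92 genes was 0.045, against 0.00082 over all genes tested, and medians of the lists are likewise given from the fit without the block. The genes called by edgeR were CEBPB, CDC42BPA, CAMK2D and NTN1, and all 4 calls rest on the block. DESeq2 with the block called these 4 and, in addition, RPL13A (q = 0.0413) and CTSB (q = 0.0451), a lysosomal protease.

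Among the upstream regulators, 22 of 22 were tested, with 1 higher and 1 lower in the fit with the block, and a median log2 fold change of 0.076. CEBPB, a transcription factor known to act on the DAPK1 promoter after interferon gamma, had 1543, 4842 and 3886 counts in WT and 2874, 10391 and 6261 in LSD1 KO. It was higher in LSD1 KO in each same-numbered pair, although the groups overlapped, and rose by 0.92 on the log2 scale with the block (SE 0.091, q = 0.0084 by edgeR). NTN1 encodes netrin, a ligand of the UNC5 dependence receptors, through which DAPK1 can be engaged. NTN1 had 463, 502 and 598 counts in WT and 302, 344 and 354 in LSD1 KO, with each LSD1 KO library under each WT library, and fell by 0.61 on the log2 scale with the block (SE 0.12, q = 0.066 by edgeR). The receptors UNC5A and UNC5B were tested and not called by edgeR in either fit. Their log2 fold changes were 0.16 (SE 0.27) and 0.24 (SE 0.17) without the block. With it, they were 0.17 (SE 0.12) and 0.24 (SE 0.088).

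Among substrates and binding partners, 17 of 18 were tested and 0 were called, with a median log2 fold change of 0.024. GRIN2B, a subunit of the NMDA receptor, had the largest log2 fold change of the list, 0.92 (SE 0.63) without the block. Its LSD1 KO replicate 2 was at 1.88 CPM, and the other LSD1 KO libraries were at 10.5 and 12.4 CPM. STX1A, a syntaxin of synaptic vesicle release, had a log2 fold change of 0.45 (SE 0.28) without and 0.46 (SE 0.11) with the block. The list of myosin light chain phosphorylation had 11 of 12 genes tested, 1 higher with the block, and a median of 0.15. CDC42BPA, a kinase downstream of CDC42 that acts on myosin phosphorylation, had 3508, 1488 and 3376 counts in WT and 4507, 2826 and 4280 in LSD1 KO, and rose by 0.56 on the log2 scale with the block (SE 0.12, q = 0.093 by edgeR).

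Of the other calmodulin-dependent kinases, 13 of 19 were tested and 1 was higher with the block, with a median log2 fold change of −0.033. CAMK2D, the delta subunit of CaMKII, had 2896, 3134 and 3793 counts in WT and 3906, 4861 and 4274 in LSD1 KO, with each LSD1 KO library above each WT library, and rose by 0.44 on the log2 scale with the block (SE 0.091, q = 0.089 by edgeR). By edgeR, in either fit, no gene was called among the 19 of 19 tested genes of autophagy initiation (median 0.0055), the 4 of 4 of the GAIT translational control complex (median 0.086) and the 6 of 6 of interferon gamma signalling (median 0.0062). In autophagy, the log2 fold change was 0.64 (SE 0.39) for ATG12, a ubiquitin-like conjugation protein, and −0.36 (SE 0.24) for BCL2, which binds beclin, both without the block. In the GAIT complex, it was 0.31 (SE 0.30) without and 0.35 (SE 0.10) with the block for RPL13A. RPL13A, called by DESeq2 with the block as given above, is the ribosomal protein that is phosphorylated downstream of DAPK1 and DAPK3. The log2 fold change of GAPDH, a glycolytic enzyme that is also a subunit of the complex, was 0.18 (SE 0.25) without the block. In interferon gamma signalling, it was 0.34 (SE 0.20) without and 0.33 (SE 0.097) with the block for the receptor chain IFNGR1. For the kinase JAK2, it was −0.20 (SE 0.17) without and −0.19 (SE 0.12) with the block. With the block and pair 2 left out, the 4 called genes had q values under 0.1 by edgeR, from 1.02e-05 for CEBPB to 0.0593 for CAMK2D. That refit was chosen after seeing the data and called 1055 genes, against 282 with all pairs. These q values therefore do not show that the calls are stable. Without the block, the log2 fold change of CEBPB went from 0.96 to 0.44 without LSD1 KO replicate 2 and to 0.63 without WT replicate 1, and that of CDC42BPA from 0.51 to 0.21 without WT replicate 2.

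**Figure D5:**
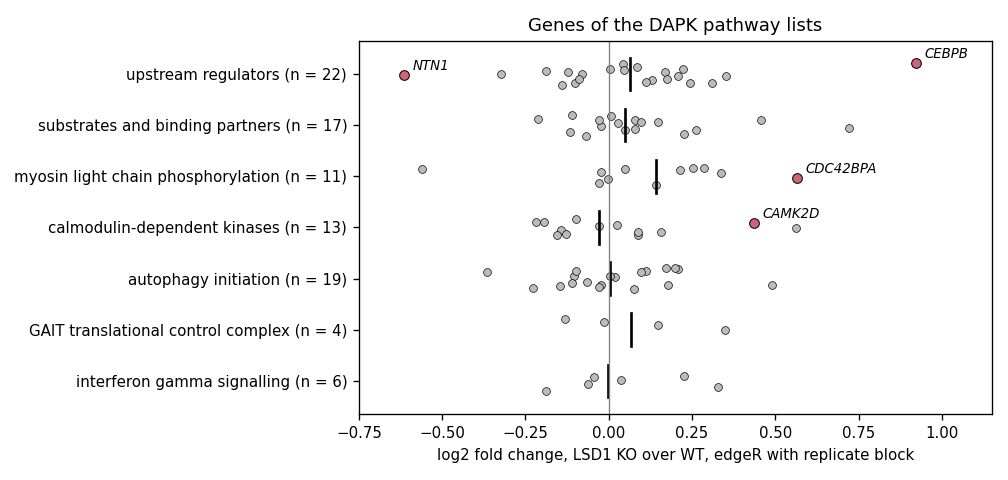
Each point is a tested gene of one of the 7 lists, placed by its log2 fold change of LSD1 KO over WT from edgeR with the replicate block, with black ticks at the list medians and called genes in red. The 4 called genes are NTN1 at −0.61, CAMK2D at 0.44, CDC42BPA at 0.56 and CEBPB at 0.92.

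The genes whose levels varied most like those of each member were ranked by Pearson's r of log2 CPM over the 6 libraries. Only genes with a mean of at least 1 CPM were ranked, and r does not compare mean levels. The points share their libraries and depth, and up to 14800 genes were compared. For DAPK2 they were METTL2B (r = 0.975), SLX1A-SULT1A3 (0.967) and AMZ2P1 (0.952). For DAPK3 they were TMEM145 (0.999), EIF4EBP1 (0.998) and MRPL34 (0.998). For STK17A they were VIM-AS1 (0.986), CA13 (0.985) and PBX3 (0.984), and for STK17B FBXO33 (0.989), ZNF225 (0.982) and FEM1C (0.981). DAPK1 had a mean under 1 CPM and was examined after its values had been seen. Its nearest genes were NTN1 (0.989), at 18.8 CPM in WT and 12.3 CPM in LSD1 KO, ENSG00000233589 (0.986) and ZNF485 (0.984). The mean of each was lower in LSD1 KO. Because DAPK1 was chosen on its low LSD1 KO counts, these r values largely restate that difference, and nothing is read from them. Among the members, r was 0.590 between DAPK3 and STK17A, 0.584 between STK17A and STK17B, and −0.615 between DAPK1 and STK17B over the 6 libraries. The value with DAPK1 carries the same limit.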

How the data were processed

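Poly(A) RNA from 3 WT and 3 LSD1 KO HCT116 libraries had been sequenced as read pairs. The authors checked reads with FastQC, trimmed them with Trimmomatic 0.39, quantified them with Salmon 1.4.0 against GENCODE transcripts on GRCh38 and deposited expected counts per gene as whole numbers, without scaling for depth. The tool versions are from the submitters' processing notes, and the step from transcripts to genes is not given in the sources used here. Symbols were matched by Ensembl identifier for 58395 of 60240 genes.

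Counts were compared with edgeR 4.0.16 in R 4.3.3 (TMM, filterByExpr by group, quasi-likelihood test, Benjamini-Hochberg adjustment over 17672 genes), and genes with a q value under 0.1 were called. The study's methods name DESeq2, and DESeq2 1.42.0 was an alternative. Libraries with the same number deviated together from their group means (r of 0.553, 0.553 and 0.404 across 17672 genes). The r for different numbers was −0.516 to 0.0454. Deviations cancel out within a group, so a positive r for the same number tends to lower the others, which are no independent reference. A second fit took the replicate number as a block, which lowered edgeR's common coefficient of biological variation from 0.279 to 0.133. Intervals of summed counts are exact and conditional on the total. Lengths and shared 31-base words came from GENCODE v44lift37 transcripts, and positions and promoters from RefSeq on GRCh38.p14. Figures were drawn with matplotlib 3.10.9 in Python 3.11.15.

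The members, the gene lists and the naming rule were chosen with earlier results of these data known. The rule names the 5 members, KDM1A, genes whose symbols begin with a member's name, in each list up to 4 called genes with the smallest p or otherwise the 2 with the largest change, the 3 genes most like each member and the nearest tested genes. MAL2, CTSB, the receptor genes and the likeness of DAPK1 fall outside this rule and were added with their values known. In simulated counts, 200 genes were changed by 2 on the log2 scale. Over 17770 genes, edgeR recovered 197 of them and called 0 unchanged genes. With the block it recovered 200, with 9 false calls. The simulated dispersion, the square of the coefficient of biological variation, was 0.02. A replicate effect of SD 0.3 was added to part of the genes. Of these, 8891 were tested, and edgeR's test of replicate numbers recovered 3098 (34.8%), with 137 false calls. Only genes at or above 1 CPM were changed between the groups, and DAPK1 averaged under that level. These settings were not matched to the real libraries, so the recovered counts do not give the power in the real data. The alternatives were other size factors, filters and thresholds, DESeq2, the replicate block, other lengths and leaving out each library.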

Additional observations from a re-analysis of the deposited data

How the results depend on the processing

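The number of called genes moved with the model. It was 1 in the main edgeR fit without the block and 114 with every gene with counts kept. It was 95 with DESeq2, 282 with the replicate block and 597 with DESeq2 and the block. It lay between 1 and 26 when each library was left out in turn, with 26 without LSD1 KO replicate 2. In 2 alternatives chosen after seeing the data it was 1055 with the block and pair 2 left out, and 387 with the block in DESeq2 without its low-count filter. The pathway lists had 0 called genes in the main edgeR fit, 4 with the block and 6 with DESeq2 and the block. They had 9 with the block and pair 2 left out, and 5 with the block in DESeq2 without its low-count filter. In edgeR, the block added calls for DAPK1, MAL2, EPCAM, COL1A1 and 4 list genes and changed no other call among the genes named. Among the list and marker genes in DESeq2, it added calls for those 4, RPL13A, CTSB, COL1A1 and KRT19 and removed that of EPCAM, and it left DAPK1 without an adjusted p. The log2 fold change changed sign when libraries were left out in turn for DAPK3 (−0.29 to 0.15) and STK17A (−0.049 to 0.24), and for DAPK2 (0.025) with the block and pair 2 left out. The log2 fold change of STK17B was 0.069 with the block and pair 2 left out. The replicate difference of STK17A had q = 0.0994 with the size factors of DESeq2 in edgeR. DAPK1 was lower in LSD1 KO in each of 13 alternatives and had no value where 10 counts in every library were required. These alternatives reuse the libraries that chose the family, so the shared sign is a description. The q value of DAPK1 by edgeR or DESeq2 was under 0.1 in 5 of the 12 alternatives that gave one, and reached 0.9999. The causes of these shifts were not tested. DAPK1 rests on 2 to 6 counts in LSD1 KO, which limits its precision.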
